A study of Mus musculus with 2 samples.

Results

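Interferon-stimulated genes were followed through the cells of the injured mouse liver. They are genes that cells switch on when interferons bind their receptors, and 37 were chosen by symbol, with no measured value in the rule. Earlier results of these data were, however, known when the list was chosen. The deposited tables hold 27998 genes, all 37 members are among them, and each had UMIs (counted RNA molecules) in both libraries. The cells are liver nonparenchymal cells, the fraction that stays in suspension when hepatocytes are pelleted, from C57BL/6 mice that had all received the hepatotoxin carbon tetrachloride 4 times. One library is wild type. The other, called yap1, came per the series' design text from mice with floxed Yap1 alleles and Cre under the Lyz2 locus, which is active in monocytes, macrophages and neutrophils, so that the coactivator Yap1 would be lost in myeloid cells and not in the rest of the liver. No uninjured liver and no floxed or Cre-only control entered the comparison. Each library is labelled as a sample from 3 mice, the mice cannot be told apart, and the sources used here do not state the animals' age.

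With 1 library per genotype there is no replicate, and no test is possible. Counts are therefore given with 95% intervals that cover counting error alone, not the spread between cells, mice or libraries, and a ratio always means yap1 over wild type. After filtering, 4653 wild-type and 3983 yap1 cells remained, with median depths of 4073 and 5297 UMIs, and 5 cell barcodes occurred in both libraries. Cells were assigned to classes by fixed marker genes, with no interferon-stimulated gene among them, which placed 87.5% and 85.4% of the cells. Classes that held 50 or more cells of both genotypes, 11 in all, were compared and carry the suffix "-like". Yap1 itself could not check the labels in myeloid cells, where its UMIs numbered from 0 to 2 per class and library, and in sinusoidal endothelial-like cells it stood at 69.6 and 68.4 CPM, the level scaled to the class's total UMIs. Lyz2, the locus that carries Cre, was at 24466 CPM in wild-type and 12585 CPM in yap1 classical monocyte-like cells.

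Type I interferons signal through their receptor, Ifnar1 and Ifnar2, to a complex holding Stat2 and Irf9 that binds interferon-stimulated response elements in promoters. Interferon gamma signals through Ifngr1 and Ifngr2 and acts on gamma-activated sites. Many members answer to both, among them the Gbp and immunity-related GTPases, while the Ifit genes, Rsad2, Mx1 and Isg15 are mostly known for type I responses. In the liver, Kupffer cells are the resident macrophages, and monocytes enter after injury.

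The core of the response element, written here as GAAA, any 2 bases and GAAA, on either strand, was searched in the 250 bases before each gene's start in RefSeq promoters of GRCm38.p6. Of the 37 members, 28 had an entry and 16 of these, or 57.1%, held the motif, against 3.46% of 27025 genes with an entry. The shorter TTCNNNGAA of gamma-activated sites was in 6 of the 28 members (21.4%) and in 8.13% of all genes. Promoters of some members named below, each with a match, are shown with matches to this core in capitals, in either orientation, 5′ to 3′ on the gene's strand. They do not stand for the rest: Cmpk2, Ifit2, Ifi47, Oasl2, Irf7 and Ifitm3, also named below, had no match. Each ends at the base before the RefSeq start. A match is a description of the letters, not evidence of binding.
Isg15, chr4:156200819-156200998, minus strand: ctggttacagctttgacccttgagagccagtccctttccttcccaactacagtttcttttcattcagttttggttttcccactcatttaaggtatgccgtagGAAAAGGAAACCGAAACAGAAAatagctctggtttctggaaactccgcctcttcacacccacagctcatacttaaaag
Ifit1, chr19:34640709-34640888, plus strand: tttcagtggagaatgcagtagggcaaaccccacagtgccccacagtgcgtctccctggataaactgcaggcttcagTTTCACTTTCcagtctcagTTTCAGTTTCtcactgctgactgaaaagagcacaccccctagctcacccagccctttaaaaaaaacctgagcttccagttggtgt
Ifit3, chr19:34583349-34583528, plus strand: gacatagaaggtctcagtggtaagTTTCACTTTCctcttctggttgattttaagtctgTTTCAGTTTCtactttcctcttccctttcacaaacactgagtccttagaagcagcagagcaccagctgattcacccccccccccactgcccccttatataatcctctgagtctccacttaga
Rsad2, chr12:26456453-26456632, minus strand: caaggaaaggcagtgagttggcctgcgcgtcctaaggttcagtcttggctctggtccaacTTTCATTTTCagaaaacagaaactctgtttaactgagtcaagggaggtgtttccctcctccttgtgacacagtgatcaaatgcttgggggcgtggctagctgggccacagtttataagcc
Bst2, chr8:71537473-71537652, minus strand: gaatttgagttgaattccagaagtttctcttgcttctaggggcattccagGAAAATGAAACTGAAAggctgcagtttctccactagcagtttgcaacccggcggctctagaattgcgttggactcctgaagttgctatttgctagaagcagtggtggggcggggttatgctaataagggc
Gbp2, chr3:142620483-142620662, plus strand: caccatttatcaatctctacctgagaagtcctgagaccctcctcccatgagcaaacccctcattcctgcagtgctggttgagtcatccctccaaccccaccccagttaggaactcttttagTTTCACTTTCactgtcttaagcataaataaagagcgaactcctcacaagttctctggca
Isg15 holds 3 overlapping matches, the first beginning 78 bases before the start. Ifit1 and Ifit3 hold 2 separate matches each, beginning 104 and 156 bases before their starts, and the match of Gbp2 begins 59 bases before its start.

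Several members lie beside each other in mm10. Ifit2 (chr19:34550694-34576419), Ifit3 (chr19:34583531-34588731) and Ifit1 (chr19:34640871-34650009) follow one another on the plus strand. Rsad2 (chr12:26442746-26456452) and Cmpk2 (chr12:26469204-26479837) are neighbours on opposite strands. The 4 Oas members are all on chromosome 5 and the 4 Gbp members on chromosome 3. Of the 50-base words in the last 500 bases of the Oas1a transcripts, 56.1% occur also in another gene, most of them in Oas1g, so reads of these 2 genes can be split between them. The same share was 24.5% for Herc6, 19.9% for Trim30a, 14.9% for Ifit3, most in Ifit3b, and 14% for Ifitm3, and at most 4.58% for the other members. Irf7, Usp18, Oasl1, Dhx58, Parp9, Ifi47, Gbp2 and Slfn5 overlap exons of a gene on the other strand. The sources used here do not state whether strand was used in the counting.

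The members were not spread evenly over the classes. Summed over all 37, they made up 8719 CPM (8616 to 8824) in wild-type classical monocyte-like cells, 6964 in plasmacytoid dendritic-like cells, 6487.5 in Kupffer-like cells, 6258 in monocyte-derived macrophage-like cells and 6064 in neutrophil-like cells. Sinusoidal endothelial-like cells were at 5522 CPM. Lymphocytes were far lower, with 1617 CPM in T-like and 1066 CPM in B-like cells. A few transcripts carried these sums. Ifitm3, a membrane protein that restricts virus entry, made 52.3% of the members' UMIs in wild-type classical monocyte-like cells and 72.1% in hepatocyte-like cells. Bst2 (tetherin), which holds budding virions at the membrane, made 60.9% in plasmacytoid dendritic-like cells, and Ifi27l2a made 45.8% in B-like cells. For this reason the sum without these 3 genes, over 34 members, is given beside the full one, and it ordered the classes differently. In wild type it was 2726 CPM in neutrophil-like, 2425 in Kupffer-like, 2331 in monocyte-derived macrophage-like and 2030.5 in sinusoidal endothelial-like cells. Classical monocyte-like cells followed at 1994 CPM and plasmacytoid dendritic-like cells at 1615 CPM. T-like and B-like cells were at 847 and 488 CPM.

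**Figure D1:**
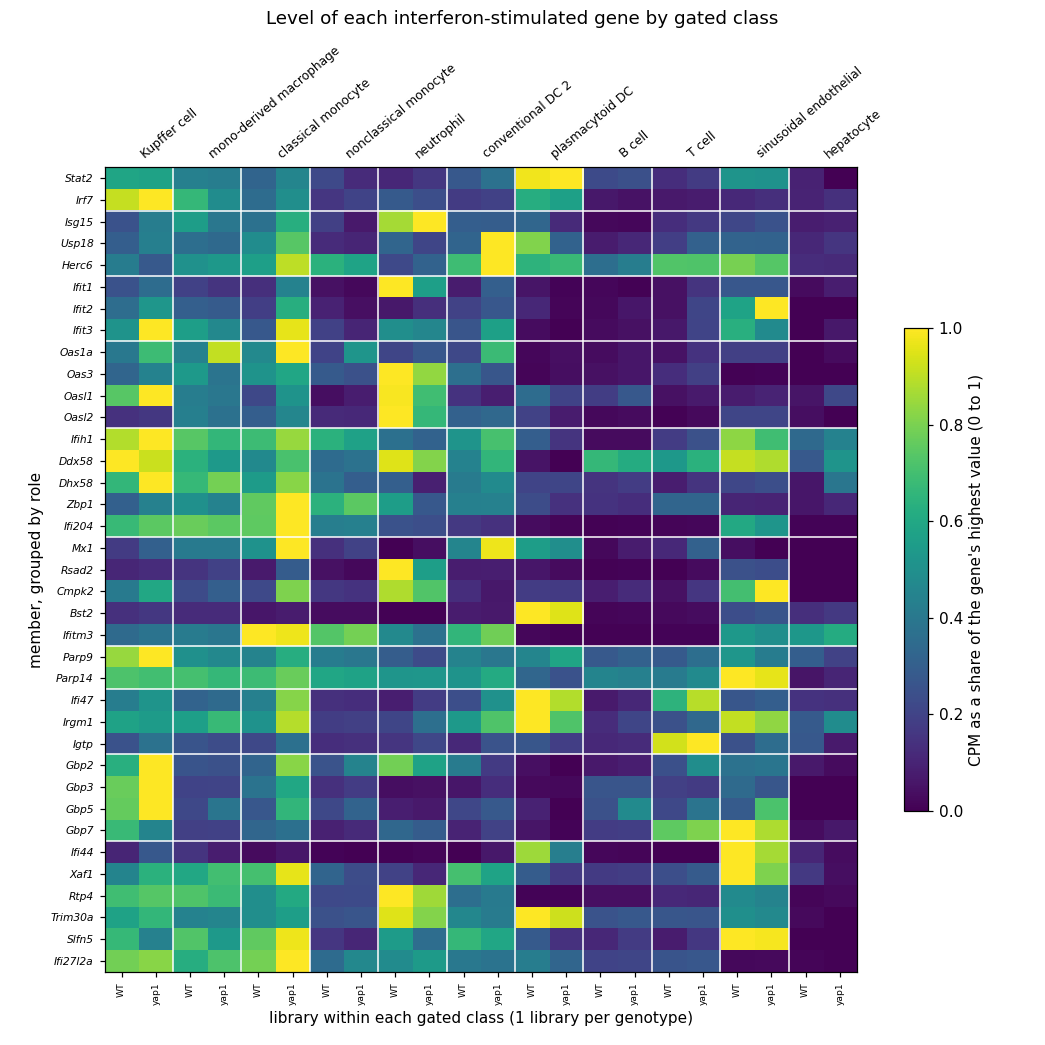
CPM of each of the 37 members (rows, by role) in the 11 gated classes, with the wild-type (WT) and yap1 libraries as neighbouring columns, scaled so that the gene's highest value is 1. Bst2 is highest in plasmacytoid dendritic-like cells, Isg15 and Rsad2 in neutrophil-like cells, and Ifi44 in sinusoidal endothelial-like cells, in both libraries.

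By the mean of both libraries, 10 members were highest in Kupffer-like cells, 8 in sinusoidal endothelial-like, 6 each in classical monocyte-like and neutrophil-like, 4 in plasmacytoid dendritic-like, 2 in conventional dendritic cell 2-like cells and 1 in T-like cells. For 25 of the 37 the highest class was the same in both libraries, among them 6 of the 10 of Kupffer-like cells. Stat2, a subunit of the factor that type I interferon activates, was highest in plasmacytoid dendritic-like cells at 75.6 and 77.3 CPM (wild type and yap1, in that order here and below), against 45.4 and 44.4 in Kupffer-like cells, the next class. Irf7, which drives interferon alpha transcription, was highest in Kupffer-like cells at 430.0 and 471 CPM, followed by plasmacytoid dendritic-like cells at 292.7 and 267.7. In wild type alone, monocyte-derived macrophage-like cells came second for Irf7, at 315 CPM.

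Isg15, a ubiquitin-like protein, stood at 323 and 374 CPM in neutrophil-like cells, 139 and 235 in classical monocyte-like cells, and 7.46 and 6.55 in B-like cells. Neutrophil-like cells also led for Rsad2 (viperin, which makes a chain-terminating nucleotide) with 355 and 199 CPM, and for Oasl2 with 290.3 and 193 CPM. Members of 1 family differed in where they were low. Oas3, an enzyme that makes the activator of RNase L, was at 127 and 106 CPM in neutrophil-like cells but had 1 UMI per library in sinusoidal endothelial-like cells, where its family member Oasl2 had 89 and 58 UMIs. The cytosolic RNA sensor genes Ddx58 (RIG-I) and Ifih1 (MDA5) were both highest in Kupffer-like cells, Ddx58 at 65.9 and 60.6 CPM and Ifih1 at 47.7 and 53.8 CPM. Sinusoidal endothelial-like cells led for Ifi44 with 102 and 88.1 CPM, where T-like cells held 0 and 1 UMI, and for Ifit2 with 50.7 and 87.1 CPM. Igtp, an immunity-related GTPase that acts on vacuoles of intracellular parasites, was highest in T-like cells at 86.4 and 92.8 CPM.

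Free RNA was gauged from Ifitm3, which was at 4564 and 4441 CPM in classical monocyte-like cells and 31.2 and 29.6 CPM in B-like cells. A UMI of it was found in 99.6% and 98.9% of the former, at median depths of 11783 and 14762 UMIs, and in 10.4% and 11.2% of the latter. Lyz2 went further: a UMI of it was in 320 of 1270 and 174 of 910 B-like cells. In T-like cells it was in 158 of 462 and 96 of 444. Shares of either order in classes expected to lack a gene are therefore read as background. The part of free RNA in the ratios of T-like and B-like cells was not tested.

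Between the libraries, the members stood higher in yap1 in some classes and lower in others. The full sum was higher in classical monocyte-like cells (10258 against 8719 CPM, ratio 1.18, 1.16 to 1.19), T-like cells (1.19, 1.14 to 1.24), Kupffer-like cells (1.12, 1.09 to 1.16) and conventional dendritic cell 2-like cells (1.14, 1.09 to 1.19). It was also higher in nonclassical monocyte-like (1.11, 1.07 to 1.15), B-like (1.08, 1.03 to 1.12) and hepatocyte-like cells (1.17, 1.07 to 1.28). It was lower in neutrophil-like cells (0.872, 0.845 to 0.90) and plasmacytoid dendritic-like cells (0.873, 0.843 to 0.904). In monocyte-derived macrophage-like (0.991, 0.973 to 1.01) and sinusoidal endothelial-like cells (0.978, 0.945 to 1.01) the interval held 1. The direction in Kupffer-like and nonclassical monocyte-like cells turned with a stricter gate, to 0.974 and 0.989. Over 34 members the ratio was 1.55 (1.5 to 1.6) in classical monocyte-like cells and 1.29 (1.22 to 1.36) in T-like cells. It was 0.825 (0.787 to 0.865) in neutrophil-like cells and 0.761 (0.705 to 0.821) in plasmacytoid dendritic-like cells. Monocyte-derived macrophage-like cells were then below 1, at 0.927 (0.899 to 0.955). The interval held 1 in nonclassical monocyte-like (0.997, 0.922 to 1.08), hepatocyte-like (1.16, 0.867 to 1.55) and sinusoidal endothelial-like cells (0.972, 0.918 to 1.03). Kupffer-like (1.19, 1.13 to 1.26), conventional dendritic cell 2-like (1.204, 1.11 to 1.31) and B-like cells (1.11, 1.05 to 1.18) were above 1. Few yap1 cells weighed on these 3 ratios. In Kupffer-like cells 2 yap1 cells held 18.3% of the 34-member UMIs, against 2.90% in 2 wild-type cells. A single yap1 cell held 17.3% in conventional dendritic cell 2-like and 5.07% in B-like cells. The 34-member ratios without these cells are not given.

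**Figure D2:**
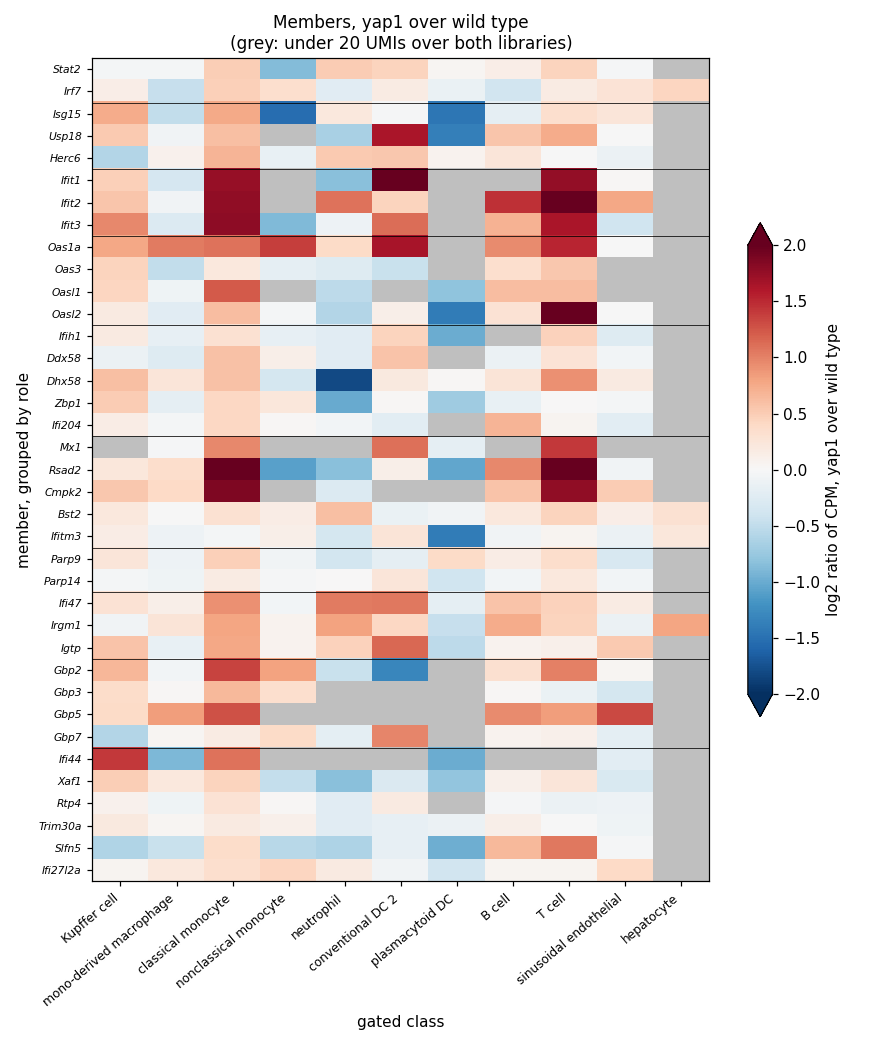
Log2 ratio of CPM, yap1 over wild type, for each member (rows, by role) in the 11 gated classes (columns), with cells under 20 UMIs over both libraries in grey and colours ending at 2 log2 units either way. The classical monocyte column is red for 36 of 37 members, with the Ifit genes, Rsad2 and Cmpk2 darkest, and the plasmacytoid dendritic column is blue for 20 of 24.

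**Figure D3:**
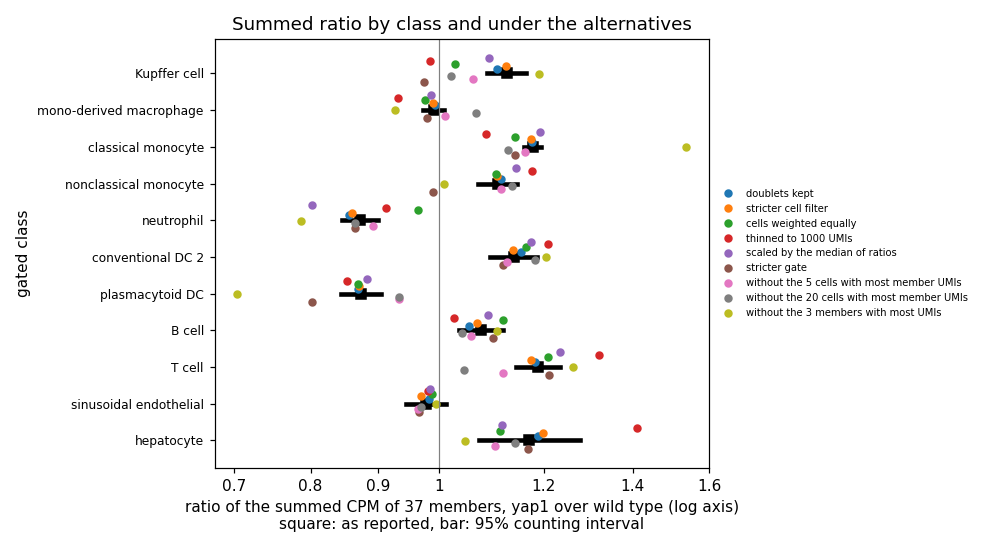
Ratio of the summed CPM of 37 members, yap1 over wild type, on a log axis for the 11 gated classes, as reported (squares, with 95% counting intervals) and under 9 alternatives (dots). Classical monocyte-like cells stay above 1 and plasmacytoid dendritic-like cells below 1 under each of them, whereas Kupffer-like and nonclassical monocyte-like cells have dots on both sides.

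Classical monocyte-like cells (266 wild type, 274 yap1) had the most members beyond 1.5-fold. All 37 members had at least 20 UMIs there, 36 were higher in yap1, and 19 were higher by more than 1.5-fold, a mark that 7.45% of the 9291 genes with as many UMIs passed in that direction. No member was lower by that much, against 6.34% of all genes. The median log2 ratio was 0.60 over the members and -0.01 over all genes. Markers of other cell types also differed between the libraries in this gate. The summed markers of monocyte-derived macrophages stood at 308 and 462 CPM (5 of 6 higher in yap1, none at 0), and those of neutrophils at 434 and 563 CPM (6 of 7 higher). Their part in the member ratios was not tested.

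The Ifit genes, whose proteins bind foreign or unmodified RNA, differed most as a group, with a summed ratio of 3.42 (2.92 to 4.02). Ifit3 had 92 and 420 UMIs in classical monocyte-like cells, 29.5 and 102 CPM, a ratio of 3.47 (2.76 to 4.40). Ifit1 was at 16.6 and 55.5 CPM (3.33) and Ifit2 at 16.0 and 54.8 CPM (3.42). Among the antiviral effectors, Rsad2 had 80 and 426 UMIs, 25.6 and 104 CPM, a ratio of 4.05 (3.18 to 5.21). Cmpk2, a mitochondrial nucleotide kinase encoded beside it, had 28 and 134 UMIs, 8.96 and 32.6 CPM, a ratio of 3.64 (2.41 to 5.68). Mx1, a gene of the dynamin-like GTPase family, was at 17.9 and 35 CPM (1.95, 1.43 to 2.71), and its protein was not measured. Bst2 differed less, with 260 and 320 CPM (1.23, 1.13 to 1.34), and Ifitm3 was the member below 1, at 0.973 (0.952 to 0.995), which became 1.01 with the stricter gate.

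The other role groups lay between these ends. Within ubiquitin-like conjugation, Isg15 was at 139 and 235 CPM (1.69, 1.51 to 1.90), Usp18, the protease that removes Isg15 and dampens receptor signalling, at 32.0 and 48.7 CPM (1.52), and the ligase Herc6 at 32.7 and 52.1 CPM (1.59). After thinning, which leaves few UMIs, an Isg15 UMI was found in 12.5% and 12.8% of cells and a Usp18 UMI in 3.77% and 1.83%. The Usp18 ratio was then 0.529, with a UMI in 10 and 5 cells, and no direction is read from it. Of the 4 Oas genes, Oas1a (2.12, 1.77 to 2.55), Oasl1 (2.35) and Oasl2 (1.54, 1.0 after thinning) passed 1.5-fold and Oas3 (1.16, 0.966 to 1.39) did not. None of the 5 sensor genes passed it: the ratios ran from 1.24 for Ifih1 to 1.498 for Dhx58. All 3 immunity-related GTPases did, with Ifi47 at 64.7 and 122 CPM (1.88), Irgm1 at 46.4 and 80.6 (1.74) and Igtp at 20.2 and 34.3 (1.70). Among the guanylate-binding proteins, which coat vacuoles and cytosolic bacteria, Gbp2 was at 35.2 and 89.8 CPM (2.55, 2.06 to 3.18), Gbp5 had 16 and 51 UMIs (2.42), Gbp3 was at 1.56 and Gbp7 at 1.12 (0.872 to 1.43). Stat2 and Irf7 had ratios of 1.4 and 1.39, and Parp9 and Parp14 of 1.39 and 1.12. Of the remaining members Ifi44 passed 1.5-fold, on 9 and 25 UMIs with an interval that held 1.

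These UMIs were held by few cells. In yap1 classical monocyte-like cells, 7 cells carried at least 50% of the Rsad2 UMIs and 8 at least 50% of those of Ifit3, and in wild type 11 and 6 did. For Ifitm3 it took 87 cells in either library. The median cell held 0.153% of its UMIs in the 34 members in wild type and 0.200% in yap1, and the 99th percentile was 1.02% and 2.05%. At or above 1%, a limit set after the values were seen, there were 3 wild-type and 16 yap1 cells, with 8.11% and 28.9% of the class's 34-member UMIs. When every cell was thinned to 1000 UMIs, to take out depth, 5 of 265 wild-type cells (1.89%, exact Clopper-Pearson interval 0.615 to 4.35) and 16 of 273 yap1 cells (5.86%, 3.39 to 9.34) reached the same limit, so the intervals of the shares overlapped. Of the thinned cells, 5 and 12 lay within 2 UMIs of the limit. The cells over it are a range of a score, and whether they form a separate state was not tested.

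**Figure D4:**
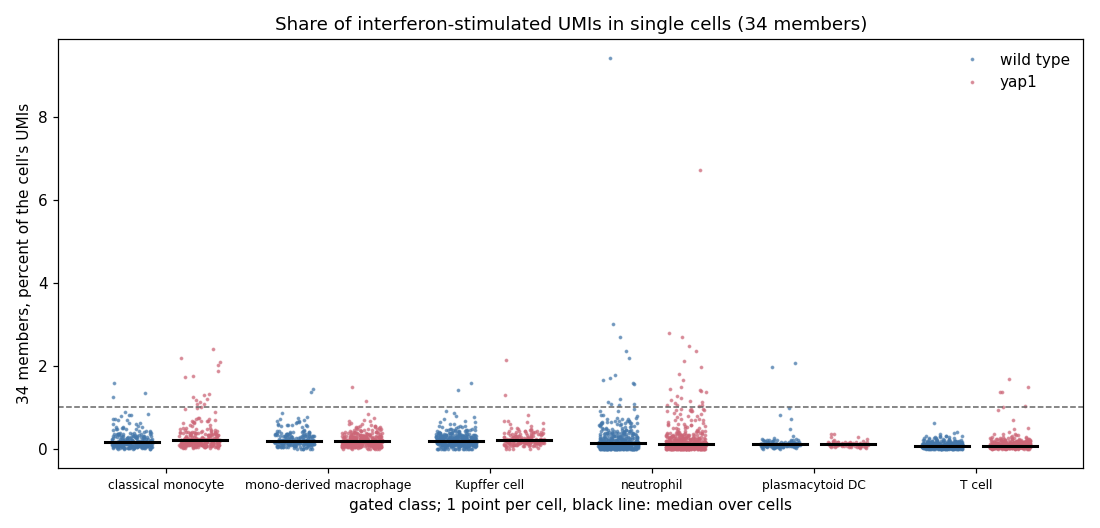
Share of each cell's UMIs in 34 members (without Ifitm3, Bst2 and Ifi27l2a) for 6 gated classes, wild type in blue and yap1 in red, 1 point per cell with the median as a black bar and the 1% limit dashed. Above the line lie 3 wild-type and 16 yap1 classical monocyte-like cells, and the highest cell of all, at 9.41%, is a wild-type neutrophil-like cell.

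The 16 yap1 cells, with 5.74% of the class's UMIs, held 71.9% of its Ifit1 UMIs, 68.1% of Rsad2, 64.3% of Ifit3, 51.0% of Usp18 and 42.2% of Isg15. They held 28.2% of Gbp2, 10.2% of Oas1a and 8.24% of Ifitm3. Apart from Ifitm3, these genes entered the choice of the 16 cells, so a high share of their summed UMIs there is built in. Cxcl10, which encodes a chemokine for T cells and did not enter the choice of these cells, was more concentrated still: they held 840 of its 934 UMIs, or 89.9%. In wild type the 3 cells above the limit held 39.3% of the 178 Cxcl10 UMIs. The 16 cells had a median of 14210 UMIs against 14762 in the other cells of the class, and their summed classical monocyte markers were at 3446 against 4296 CPM. They overlapped between genes: of the 8 cells with at least 50% of the Ifit3 UMIs, 7 were among the 18 for Isg15 and 4 among the 7 for Rsad2.

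Without the 20 cells of each library that held most member UMIs, an alternative added after the data were seen, 11 of 37 members in place of 19 passed 1.5-fold in classical monocyte-like cells, against 7.13% of genes. After thinning 11 of the 26 members that still had 20 UMIs did, against 11.6% of genes. The Rsad2 ratio was then 2.03 without those cells and that of Ifit3 2.41, whereas that of Cmpk2 was 3.66 (6.79 after thinning). Without the 5 cells with most the count was 19 of 37 (7.27% of genes). The stricter gate gave 16 of 36 (7.64% of genes), with Rsad2 at 3.15 and Ifit3 at 2.68.

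**Figure D5:**
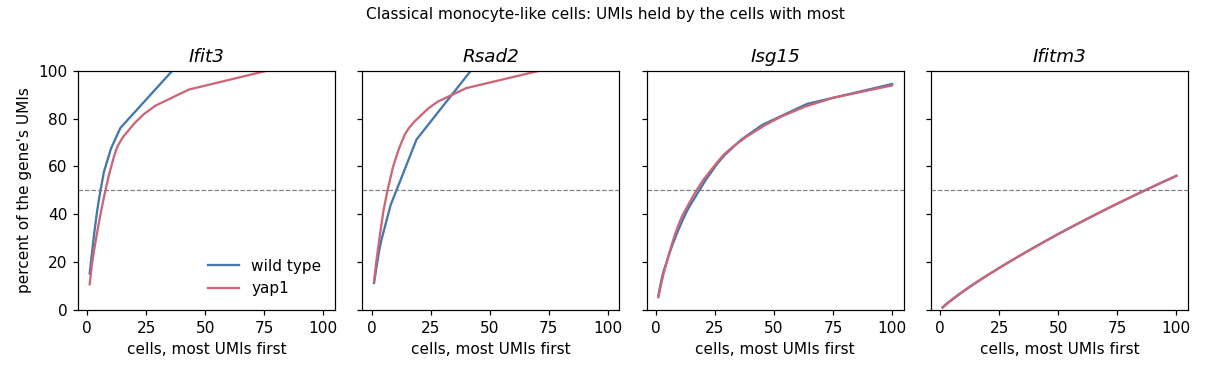
Cumulative percent of a gene's UMIs over classical monocyte-like cells ranked by that gene's UMIs, for Ifit3, Rsad2, Isg15 and Ifitm3, wild type in blue and yap1 in red, with the 50% level dashed. The curves of Ifit3 and Rsad2 cross 50% within 11 cells and those of Ifitm3 at 87.

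The wider pathway was read from lists of genes outside the 37. Of 28 further type I response genes with at least 20 UMIs in classical monocyte-like cells, 25 were higher in yap1 and 8 by more than 1.5-fold, and none was lower by as much, against 7.45% and 6.34% of all genes in the class. Ifit3b, a near copy of Ifit3, had 16 and 83 UMIs (3.94), Ifit1bl1 had 9 and 73 UMIs (6.17, 3.08 to 14), and Oas1g was at 10.9 and 26.8 CPM (2.46). Isg20, an exonuclease for single-stranded RNA, was at 11.5 and 23.4 CPM (2.03) and Lgals3bp at 95.1 and 154 CPM (1.62). Among 17 genes of the interferon gamma list, 16 were higher and 5 by more than 1.5-fold, against the same 7.45%, with Cxcl10 at 57.0 and 227 CPM (3.99, 3.39 to 4.71), Irgm2, whose exons overlap those of Igtp, at 4.8 and 18.3 CPM (3.80) and Gbp9 at 1.91. Cxcl9 went the other way, at 65.0 and 34.8 CPM (0.536), with its UMIs in 6 and 10 cells. In the signalling list Socs1, a feedback inhibitor of cytokine receptors, had 9 and 43 UMIs (3.63). The receptor genes differed little by comparison: Ifnar1 had a ratio of 1.29 (1.10 to 1.53), Ifnar2 0.954, Ifngr1 0.861 (0.810 to 0.916) and Ifngr2 1.01.

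Transcripts of the ligands themselves were nearly absent. Of 19 type I and type III interferon genes, Ifnb1 had 1 UMI, in a yap1 monocyte-derived macrophage-like cell, and the other 18 had none in any kept cell of either library. Ifng was seen with 313 UMIs in 126 wild-type cells and 385 UMIs in 113 yap1 cells. T-like cells held 433 of these UMIs.

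In T-like cells (462 and 444), 32 of 36 members with at least 20 UMIs were higher in yap1, and 14 of them by more than 1.5-fold, against 5.82% of 9276 genes. None was lower by as much (6.19% of genes), and the median log2 ratio was 0.45 against -0.04 over all genes. Ifit2 had 11 and 61 UMIs, 4.06 and 18.4 CPM (4.52, 2.36 to 9.54), Ifit1 15 and 62 UMIs (3.37, 1.90 to 6.38) and Ifit3 19 and 72 UMIs (3.09, 1.84 to 5.43). Rsad2 had 3 and 35 UMIs, a ratio of 9.52 with an interval of 3.0 to 48.4. Gbp2 was at 26.6 and 53.6 CPM (2.02, 1.53 to 2.69). The lowest ratios among members with at least 50 UMIs were those of Trim30a (0.992), Rtp4 (0.925) and Gbp3 (0.916), each with an interval that held 1, and Ifi27l2a, with 631 and 654 CPM, was at 1.04.

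A handful of cells weighed on these ratios. In yap1, 3 T-like cells held at least 50% of the Ifit3 UMIs, against 8 in wild type. None of 459 thinned wild-type T-like cells reached 1%, which allows a share of up to 0.80% (exact interval), and 6 of 444 yap1 cells did (1.35%, 0.497 to 2.92). Without the 5 cells with most member UMIs in each library, 7 of 31 members passed 1.5-fold (5.69% of genes), the Ifit3 ratio was 1.10 and that of Ifit1 2.52. After thinning, 3 of the 18 members with 20 UMIs passed (8.86% of genes). The summed markers of natural killer or innate lymphoid cells stood at 299 and 176 CPM in this gate, and the part of this in the ratios was not tested.

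Plasmacytoid dendritic-like cells (121 and 75) showed the opposite direction. Of 24 members with enough UMIs, 20 were lower in yap1, 11 by more than 1.5-fold (8.8% of 7329 genes) and none was higher by as much (7.63% of genes). The median log2 ratio was -0.49, against -0.03 over all genes. Isg15 had 138 and 39 UMIs, 123 and 45.0 CPM (0.367, 0.250 to 0.526). Oasl2 was at 57.8 and 21.9 CPM (0.379), Usp18 at 53.4 and 20.8 CPM (0.389), and Ifi44 at 87.2 and 43.8 CPM (0.503, 0.336 to 0.738). Other members were closer to even, with Bst2 at 4244 and 4039.5 CPM (0.952, 0.911 to 0.994), Irf7 at 0.914 and Stat2 at 1.02. Among members with at least 50 UMIs the highest ratios were those of Parp9 (1.30, 0.834 to 2.02), Herc6 (1.05) and Stat2. Each of these intervals held 1.

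Most of this difference lay in few wild-type cells. A single cell held 40 of the 138 Isg15 UMIs, and the 2 wild-type cells over 1% held 19.2% of the class's 34-member UMIs, whereas no yap1 cell reached that level. The median cell was at 0.106% and 0.109%. Without the 5 cells with most member UMIs, 19 members could be counted, 4 were lower by more than 1.5-fold (9.65% of genes) in place of 11, 2 were higher, and the Isg15 ratio was 0.704. That of Usp18 was 0.631. After thinning 6 members had 20 UMIs and none of these was lower by as much (15.7% of genes), so most of the 11 could no longer be counted. The Ifitm3 ratio of 0.381 rested on 92 and 27 UMIs, with a UMI in 33.1% and 20% of cells. In this gate the summed neutrophil markers stood at 131 and 27.7 CPM (1 of 7 higher in yap1) and the Kupffer markers at 63.2 and 28.8 CPM, and their part in the result was not tested.

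Neutrophil-like cells (396 and 463) included the cell with the highest share of these transcripts in any class plotted. After thinning, 17 of 349 wild-type cells (4.87%, 2.86 to 7.68) and 27 of 392 yap1 cells (6.89%, 4.59 to 9.86) were at or over 1%. Of 33 members with enough UMIs, 22 were lower in yap1, 8 by more than 1.5-fold (5.6% of 5446 genes), and 4 were higher by as much (22.0% of genes). The median log2 ratio was -0.23 where that of all genes was 0.19, and scaling by the median of ratios moved the summed ratio from 0.872 to 0.802. Rsad2 had 447 and 305 UMIs, 355 and 199 CPM (0.562, 0.484 to 0.651). One wild-type cell of 4037 UMIs held 237 of the 447, and without the 20 cells with most member UMIs the Rsad2 ratio was 1.10. Ifit1 (125 and 70.5 CPM, 0.563) likewise came to 0.992 without those cells.

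Zbp1 and Oasl2 were spread over more neutrophil-like cells. Zbp1, a sensor of Z-form nucleic acids, was at 68.2 and 34 CPM (0.498, 0.346 to 0.710), with at least 50% of its UMIs in 17 and 16 cells, and Oasl2 at 290.3 and 193 CPM (0.666, 0.569 to 0.778), in 43 and 44 cells. Isg15 was slightly higher in yap1, with 407 and 572 UMIs (1.16, 1.02 to 1.32). Ifi47 (2.06, 1.13 to 3.94) and Irgm1 (1.75, 1.06 to 2.97) were higher on 16 and 40, and on 24 and 51 UMIs, with at least 50% of the Ifi47 UMIs in 4 and 3 cells. Bst2 had 26 and 48 UMIs (1.52, 0.924 to 2.55), with an interval that held 1. The neutrophil-like cells over 1% before thinning, 15 and 24, had lower summed neutrophil markers than the others of their library, 60051 against 114760 CPM in wild type and 61387 against 104360 CPM in yap1. Their median depths were 2898 against 2824 UMIs in wild type and 2914.5 against 3028 UMIs in yap1. Summed markers of other myeloid classes were also lower in them, at 900 against 1250 CPM in wild type and 478 against 1006 CPM in yap1.

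In Kupffer-like cells (364 and 171), 29 of 36 members were higher in yap1, 6 by more than 1.5-fold (9.88% of 7315 genes), and 3 were lower by as much (12% of genes). Isg15 had 125 and 118 UMIs, 94.6 and 159 CPM (1.68, 1.29 to 2.18). In yap1, a single cell with 29323 UMIs held 64 of the 118, and it also held 34 of 79 Ifit3 and 20 of 33 Ifit1 UMIs, against a median depth of 2882 UMIs in the class. Without the 5 cells with most member UMIs the Isg15 ratio was 0.752 and that of Ifit3, 1.95 over all cells, was 0.928. Oas1a, at 43.9 and 75.4 CPM (1.72, 1.17 to 2.52), was at 1.81 without them. Gbp7 (0.667, 0.441 to 0.987) and Slfn5 (0.657, 0.430 to 0.983) were the lowest members with at least 50 UMIs, and Ddx58 followed at 0.919. With the stricter gate Slfn5 was at 0.406.

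Monocyte-derived macrophage-like cells (210 and 316), the class that arises from classical monocytes, had members in both directions. Of the 37 members 13 were higher and 24 lower, 2 and 1 by more than 1.5-fold (8.08% and 6.08% of 9633 genes), and the median log2 ratio was -0.07. Isg15 was at 208 and 148 CPM (0.712, 0.640 to 0.793), Irf7 at 315 and 230 CPM (0.730, 0.670 to 0.796), Oas3 at 68.6 and 48.9 CPM (0.713, 0.591 to 0.862) and Ifi44 at 15.4 and 8.25 CPM (0.534). Rsad2 was at 53.5 and 68.4 CPM (1.28, 1.06 to 1.55), with 62 of the 365 yap1 UMIs in 1 cell. In wild type 1 cell held 17 of 156, and the ratio was 1.27 when the 5 cells richest in member UMIs were left out of each library, 1.36 when 20 were, and 1.11 with the stricter gate. Also above 1 were Gbp5 (1.78, 0.911 to 3.73) and Cmpk2 (1.32, 0.828 to 2.14), whose intervals held 1. Cxcl10 was at 48.0 and 121 CPM (2.53), with its UMIs in 32 and 28 cells. The summed Kupffer markers in this gate were at 638 and 271 CPM, and their part in the result was not tested.

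Oas1a, which encodes an enzyme that makes the activator of RNase L, was above 1 in several classes and spread over many cells. In monocyte-derived macrophage-like cells it had 141 and 533 UMIs, a ratio of 2.07 (1.71 to 2.51). The ratio was 2.60 (1.64 to 4.22) in nonclassical monocyte-like, 3.13 (1.82 to 5.65) in conventional dendritic cell 2-like, 2.88 (1.6 to 5.51) in T-like and 1.92 (1.04 to 3.65) in B-like cells. After thinning, the Oas1a ratio was 1.03 in T-like and 1.05 in B-like cells, where 1.09% and 1.13%, and 0.317% and 0.332% of cells then had a UMI of it. With the stricter gate the ratio in B-like cells was 1.18. In sinusoidal endothelial-like cells the Oas1a ratio was 0.990 (0.535 to 1.79) and in neutrophil-like cells 1.31 (0.803 to 2.16). In yap1 monocyte-derived macrophage-like cells 66.1% of cells had a UMI of it, against 42.9% in wild type, and at least 50% of the UMIs took 53 and 27 cells. Without the 20 cells with most member UMIs the ratio there was 2.11, and after thinning it was 1.33. Oas1g, which shares sequence with it, was at 2.16 in that class. The sources used here do not state how reads were assigned between these 2 genes.

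Nonclassical monocyte-like cells (158 and 123) had 15 members higher and 14 lower of 29, with 2 and 4 beyond 1.5-fold (6.66% and 10.5% of 7323 genes). Beside Oas1a, Gbp2 was higher at 27.9 and 48.9 CPM (1.75, 1.13 to 2.77) and Ifi27l2a at 838 and 1128 CPM (1.35, 1.24 to 1.46). Isg15 had 87 and 29 UMIs (0.349, 0.221 to 0.536), and 1 wild-type cell held 22 of the 87. After thinning the Isg15 ratio was 2.11, with a UMI in 3 of 156 wild-type and 4 of 123 yap1 cells, so no direction is read from it. With the stricter gate the Gbp2 ratio was 1.02. Xaf1 and Oas3 were at 0.717 and 0.880, with intervals that held 1.

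In conventional dendritic cell 2-like cells (60 and 50), 22 of 32 members were higher and 8 passed 1.5-fold (8.1% of 6074 genes), while 1 was lower by as much (13.3%). Usp18 had 16 and 50 UMIs (3.09, 1.73 to 5.81), in 11 and 21 cells. A single yap1 cell held 14 of the 50, against at most 3 of 16 in 1 wild-type cell. Ifit3, with 21 and 46 UMIs (2.16, 1.27 to 3.82), had at least 50% of its UMIs in 1 cell of each library and was at 0.60 after thinning. Thinning left a UMI of it in 1 cell of each library, so no direction is read from that value. Cxcl10 had no UMI in wild type and 190 in yap1, all in 3 cells. Oas3 (0.734), Xaf1 (0.820) and Ifi204 (0.859) were the lowest of the members with at least 50 UMIs, and each interval held 1.

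In B-like cells (1270 and 910), 26 of 33 members were higher and 9 passed 1.5-fold (5.52% of 9596 genes), with none lower by as much (5.17%). These were low levels: Gbp5 was at 4.71 and 9.03 CPM (1.92, 1.13 to 3.33), Irgm1 at 11.4 and 19.0 CPM (1.67, 1.18 to 2.37) and Slfn5 at 11.6 and 18.1 CPM (1.56, 1.10 to 2.22), whereas Irf7 was at 29.6 and 22.8 CPM (0.770, 0.592 to 0.997), Isg15 at 0.879 and Zbp1 at 0.901. A single yap1 cell held 5.07% of the class's 34-member UMIs. The most in 1 yap1 cell was 11 of 80 UMIs for Slfn5 and 13 of 21 for Ifit3, against 4 of 59 and 7 of 15 in wild type. For Gbp5 and Irgm1 it was 2 of 40 and 5 of 84 in yap1. In sinusoidal endothelial-like cells (430 and 313), a class outside the myeloid lineage, 12 of 34 members were higher, 2 of them by more than 1.5-fold (6.48% of 8783 genes), and none was lower by as much (9.55%). Ifit2 was at 50.7 and 87.1 CPM (1.72, 1.24 to 2.38). Igtp (1.44), Cmpk2 (1.42), Parp9 (0.801), Gbp3 (0.781) and Ifit3 (0.759) had intervals that held 1. Outside the members, Cxcl10 was at 262 and 124 CPM (0.474, 0.383 to 0.584) and Socs3 at 445 and 200.1 CPM (0.449, 0.381 to 0.528) in these cells. In hepatocyte-like cells (131 and 117), a remnant of the pelleted fraction at a median of 1452 UMIs in wild type, 4 members had 20 UMIs; Ifitm3 was at 2413 and 2816.5 CPM (1.17, 1.05 to 1.29) and Bst2 at 572 and 707 CPM (1.24, 0.999 to 1.53). All 4 were higher, 1 by more than 1.5-fold (19.0% of 3004 genes), and none was lower by as much (9.69%).

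The ratios were last set beside the promoter motif of the response element. In classical monocyte-like cells the 16 members with a match had a median log2 ratio of 0.76 and the 12 without one 0.65. In plasmacytoid dendritic-like cells the medians were -0.49 over 8 members with and -0.81 over 9 without a match, and in T-like cells 0.49 over 16 and 0.47 over 11.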

How the data were processed

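Single-cell transcripts were counted in 2 libraries of liver nonparenchymal cells, 1 wild type and 1 yap1, each a sample of 3 mice per the labels. The authors deposited raw whole-number counts per gene and barcode, taken here as UMIs. The submitters' processing notes name the genome build mm10, Bowtie (version 0.12.2) and Seurat. No source used here states the chemistry, the counting software or its annotation.

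Barcodes with at least 500 UMIs, 200 genes and at most 20% mitochondrial UMIs passed, 4847 of 5269 wild-type (30386545 UMIs in all) and 4149 of 4731 yap1 barcodes (34234353). Scrublet's automatic threshold in scanpy 1.11.5 marked 0.0413% and 0.0964%, taken not to have worked, so the 4% with the highest scores (194 and 166) were left out. A cell's score for a class was the mean log1p of depth-scaled counts over its fixed markers, divided by the mean score of the 20 highest cells. The best of 19 classes needed 1.5 times the second and 2 detected markers (stricter gate: 3 times and 3 markers). Of the markers, 2 were not matched. CPM came from UMIs summed over a class's cells, with an exact Poisson interval. For ratios the interval was the exact conditional binomial one and for cell shares the Clopper-Pearson one, all at 95% and for counting error only. Cells were thinned to 1000 UMIs (seed 1), leaving out shallower ones. The ratio intervals were tested on simulated Poisson counts, the kind of count they assume. UMIs gathered in few cells were not simulated, so that test does not cover them. Members with at least 20 UMIs were counted, and a fold of 1.5 marks larger differences. Named are the 3 highest and 3 lowest ratios among members with at least 50 UMIs per class, members with most UMIs per role, and some pathway genes beyond 1.5-fold. Other pathway genes beyond it are not named in the results. In neutrophil-like cells these include Cxcl10, with 103 and 49 UMIs (0.392), and Irf5, with 31 and 68 UMIs (1.81). The members, lists and rules were chosen with earlier results of these data known. Other members and pathway genes in the text, and the alternatives for 19 of these members, were picked after their values were seen. Coordinates are from GENCODE M21 (mm10), promoters from RefSeq (GRCm38.p6). Python 3.11.15, numpy 2.4.6, scipy 1.17.1 and pandas 2.3.3 were used. One result is not reported here.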

Additional observations from a re-analysis of the deposited data

Results flagged for a closer look

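The ratio of yap1 over wild type for the sum of 34 members lay on opposite sides of 1 in 2 classes of the same libraries: 1.5477 in classical monocyte-like cells and 0.761 in plasmacytoid dendritic-like cells. This difference between classes was not tested, since each genotype has 1 library. In classical monocyte-like cells 16 yap1 and 3 wild-type cells were over 1% of their UMIs, and in plasmacytoid dendritic-like cells 2 wild-type cells and no yap1 cell were.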

How the results depend on the processing

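No paired analysis was possible because each genotype has 1 library, and no replicate could be left out. Of 99 recomputed summed ratios over 11 classes, 63 lay within the counting interval of the reported ratio, 33 moved outside it and 3 crossed to the other side of 1 from a ratio whose interval had not held 1 (called reversed). Thinning to 1000 UMIs gave 0.984 in Kupffer-like cells (reversed), 0.932 in monocyte-derived macrophage-like, 1.08 in classical monocyte-like, 1.18 in nonclassical monocyte-like, 0.912 in neutrophil-like, 1.21 in conventional dendritic cell 2-like, 1.03 in B-like, 1.32 in T-like and 1.41 in hepatocyte-like cells. The stricter gate gave 0.974 in Kupffer-like and 0.989 in nonclassical monocyte-like cells (both reversed), 1.14 in classical monocyte-like and 0.803 in plasmacytoid dendritic-like cells. Weighting cells equally gave 1.03 in Kupffer-like, 1.14 in classical monocyte-like, 0.965 in neutrophil-like and 1.12 in B-like cells, and scaling by the median of ratios 0.802 in neutrophil-like cells. Without the 5 cells with most member UMIs the ratio was 1.06 in Kupffer-like, 1.01 in monocyte-derived macrophage-like, 0.933 in plasmacytoid dendritic-like and 1.12 in T-like cells. Without 20 such cells (chosen after seeing the data) it was 1.02 in Kupffer-like, 1.07 in monocyte-derived macrophage-like (whose reported interval held 1), 1.13 in classical monocyte-like, 0.933 in plasmacytoid dendritic-like and 1.04 in T-like cells. Without the 3 members with most UMIs in the class it was 1.19 in Kupffer-like, 0.927 in monocyte-derived macrophage-like, 1.54 in classical monocyte-like, 1.01 in nonclassical monocyte-like, 0.787 in neutrophil-like, 1.2 in conventional dendritic cell 2-like, 0.704 in plasmacytoid dendritic-like, 1.26 in T-like and 1.05 in hepatocyte-like cells.

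Over all classes, 67 of 335 member ratios were higher by more than 1.5-fold (8.59% of genes), with 33 of 175 after thinning (10.9%) and 40 of 296 without the 20 cells (8.44%). Lower were 28 (8.16%), with 14 of 275 when 50 UMIs were required (5.11%) and 43 of 385 when 1 UMI in each library was enough (13.9%). Of 645 recomputed ratios of single members, 14 reversed. For Kupffer-like cells these were Ifit3 at 0.957 thinned, 0.928 without 5 and 0.982 without 20 cells, and Isg15 at 0.608 thinned, 0.738 with the stricter gate, 0.752 without 5 and 0.833 without 20 cells. The others were Ifi44 in monocyte-derived macrophage-like cells (1.11 thinned), Ifitm3 (1.01, stricter gate) and Usp18 (0.529 thinned) in classical monocyte-like cells, Isg15 in nonclassical monocyte-like cells (2.11 thinned), Rsad2 in neutrophil-like cells (1.10 without 20 cells), and Ifit3 in conventional dendritic cell 2-like (0.60 thinned) and T-like cells (0.855 without 20 cells). With a limit of 2% in place of 1% of thinned UMIs (added after seeing the data), 0.377% of wild-type and 1.10% of yap1 classical monocyte-like cells, 1.72% and 1.28% of neutrophil-like cells and 0.225% of yap1 T-like cells reached it. The cause of these changes was not tested. Thinned single members rest on few UMIs, so their reversals are counted by the rule and not read as directions. Depth limits members under 20 UMIs, for which no direction is read.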
